A study of Mus musculus with 15 samples.

Results

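Histone genes were examined in cultured mouse white adipocytes that had been kept cool, at 31°C, for 1 day, for 12 days or not at all. They were chosen by symbol: every gene of the count table whose name starts with Hist and a digit, which are the genes of the replication-type histone clusters, and 9 genes for histones encoded outside the clusters (H1f0, H1fx, H2afx, H2afy, H2afz, H2afv, H2afj, H3f3a and H3f3b). The rule found 64 of the 18804 genes of the table, 55 in the clusters and 9 outside them. RNA was sequenced from adipocytes differentiated from mesenchymal stem cells of C57BL/6J mouse ears, with no transgene or knockout in any group. All cells received methylisobutylxanthine, dexamethasone, insulin and troglitazone to start differentiation, as the labels state, and all were harvested on day 16. Transfer from 37°C to 31°C took place on day 4 of differentiation in the day 12 group and on day 15 in the day 1 group, while day 0 cells were never transferred. Each group had 5 libraries, so n = 5 stands behind each mean ± SD. Neither age nor sex of the mice, nor whether the libraries came from separate mice or dishes, is given in the sources used here, and the p-values therefore measure the spread between these libraries, which may be technical.

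Nucleosomes wrap DNA around an octamer of the core histones H2A, H2B, H3 and H4, and the linker histone H1 binds where DNA enters and leaves. Most cluster genes are transcribed in S phase, when new DNA is packaged, and their mRNAs end in a short stem-loop bound by the stem-loop binding protein SLBP instead of a poly(A) tail. Most genes outside the clusters encode replacement histones that are made throughout the cell cycle from polyadenylated mRNAs, H2afx being known to make both kinds of mRNA, and several cluster genes also make polyadenylated mRNAs in cells that have left the cell cycle, such as adipocytes. Whether poly(A) selection or depletion of ribosomal RNA was used for these libraries is not given in the sources used here.

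The stem-loop was looked for in the GENCODE M21 transcripts of the mouse build GRCm38 (the same assembly as mm10), as 6 bases that start with GG, a loop of 4 bases that starts with TT, and the 6 bases that pair with the first arm, within 150 bases after the stop codon. The sequences are shown for genes that the results below turn on, with the paired arms and the loop in capitals and 5 bases on each side in lower case, written as DNA letters of the coding strand.
Hist1h1e: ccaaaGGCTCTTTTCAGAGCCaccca
Hist1h1d: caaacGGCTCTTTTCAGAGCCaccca
Hist1h1c: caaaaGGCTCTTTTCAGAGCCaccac
Hist1h2be: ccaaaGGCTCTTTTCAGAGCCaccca
Hist1h2ac: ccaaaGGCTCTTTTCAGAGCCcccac
Hist2h3c1: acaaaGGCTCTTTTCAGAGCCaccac
Hist2h3c2: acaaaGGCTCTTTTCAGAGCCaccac
Hist1h4h: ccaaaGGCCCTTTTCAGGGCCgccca
Hist1h4i: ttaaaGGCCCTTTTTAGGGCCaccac
H2afx: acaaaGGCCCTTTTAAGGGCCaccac
The same 16 capital letters recur in the H1, H2A, H2B and H3 genes of the clusters shown, whereas the pair of H4 genes and H2afx have arms with other letters.

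This element was found in 37 of the 54 cluster genes with a coding transcript, in 1 of the 9 genes outside the clusters (H2afx) and in 13 of 20339 other genes, or 0.064%. Of the 17 cluster genes without it, Hist1h1b and 9 genes too low to test have no annotated bases after the stop codon, so it could not be looked for in them. In most tested genes the annotated transcript continued past the stem-loop. It ran on for 840 bases in Hist1h1c, 1153 in Hist1h1e, 1167 in Hist2h3c1, 1861 in Hist1h2be and 822 in H2afx, against 46 bases in Hist1h4h. A poly(A) signal (AATAAA or ATTAAA in the last 50 bases) was present in 8 of the 15 tested cluster genes, in 7 of the untested cluster genes and in 7 of the 9 genes outside the clusters. H3f3b, the histone gene with the highest level, and Hist1h2bc had no such signal in their annotated transcripts. The signals of 4 genes that have one are given as examples, with 8 bases on each side where the transcript allows.
Hist1h1c: atgcttctAATAAAaagcgttt
Hist2h3c1: ttaatcccAATAAAaatttaac
H1f0: aactttaaAATAAAactggaaa
H2afz: gcttactaATTAAAcagtgcat
Hist1h1c and Hist2h3c1 thus carry both a stem-loop and, further on, a poly(A) signal in their annotated transcripts. The annotated stretch after the stop codon had a median of 1209 bases in the tested cluster genes and 78 bases in the untested ones. The untested median includes the 9 genes with no annotated bases there. Whether a gene was tested depended on its counts, and a longer transcript can collect more of them. The gap between these medians therefore cannot show which kind of histone gene was expressed. RefSeq draws several of these genes shorter, with 776 bases for Hist1h1d, 725 for Hist1h1c, 782 for Hist1h1e and 664 for Hist2h3c1 against 7425, 1560, 1930 and 1825 in GENCODE, and which gene models were counted is not given in the sources used here.

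**Figure D1:**
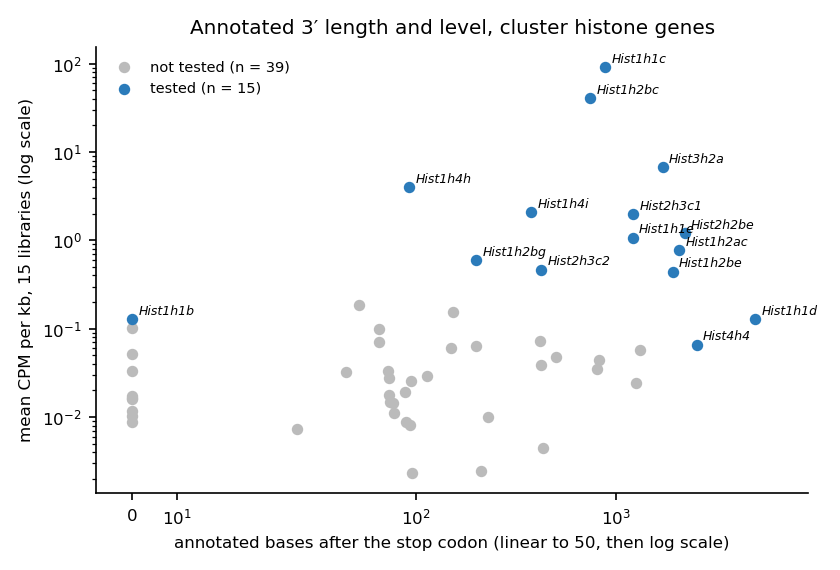
Annotated bases after the stop codon (x axis, linear to 50 and then logarithmic) and mean level over the 15 libraries in CPM per kb of transcript (y axis, log scale, GENCODE lengths) for the 54 cluster histone genes with a coding transcript; each point is a gene. Tested genes (blue) lie mostly to the right, with a median of 1209 bases against 78 for untested genes (grey), and Hist1h4h with 93 bases and Hist1h1b with 0 are the tested genes furthest to the left. Being tested depended on counts, which a longer transcript can raise.

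Levels are given as CPM, the count of a gene scaled to a common library size with TMM factors. A gene was called, and is said to have risen or fallen, where the edgeR quasi-likelihood test gave a Benjamini-Hochberg adjusted p under 0.05 over all 14293 genes tested and the fold change was over 1.5, the thresholds of the study. Library totals ranged from 64.65 to 133.3 M counts (M, mega), and no library was set aside. The filter on low counts kept 24 histone genes, all 9 outside the clusters and 15 of 55 in them: 4 of 6 for H1, 2 of 9 for H2A, 4 of 16 for H2B, 2 of 12 for H3 and 3 of 12 for H4. The other 40 never exceeded 30 counts in any library (Hist2h4), and the median of their highest counts was 7. RNA was measured in bulk, so fewer cells of a type and less histone RNA per cell cannot be told apart. Scaling by total counts instead of TMM moved the median of all genes from 0.01 to 0.21 (log2) at day 12 against day 0, and the changes below are relative to the TMM-scaled median. That scaling also moved the share of lower genes among all called genes from 55.6% to 35.9% for day 12 against day 0 and from 44.7% to 27.3% for day 12 against day 1, while histone calls went from 5 higher and 5 lower to 6 and 5, and from 10 higher and 1 lower to 12 and 0.

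After 1 day at 31°C 6 of the 24 tested histone genes fell, all of them in the clusters (Hist1h1e, Hist1h1d, Hist1h2be, Hist1h2bc, Hist2h3c1 and Hist2h3c2), beside 13.4% of all genes tested. H1fx and H3f3b rose, both outside the clusters, beside 7.71% of all genes. The other 9 cluster genes and 7 genes outside the clusters were not called, and a difference between both classes was not tested. The median log2 fold change was -0.46 over the 15 cluster genes, 0.21 over the 9 others and -0.01 over all genes. After 12 days 5 histone genes were lower than at day 0 (Hist1h1d, Hist1h1e, Hist1h2be, Hist1h4h and Hist2h3c2), beside 16.2% of all genes, and 5 were higher (H1f0, H1fx, H2afz, Hist1h2ac and Hist1h4i), beside 13% of all genes. The medians then were 0.00 over the cluster genes, 0.24 over the others and 0.01 over all genes. Values of the 5 libraries of a group did not overlap those of day 0 for 14 histone genes at day 1 and 13 at day 12, compared with 57.4% and 64.6% of all genes tested.

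**Figure D2:**
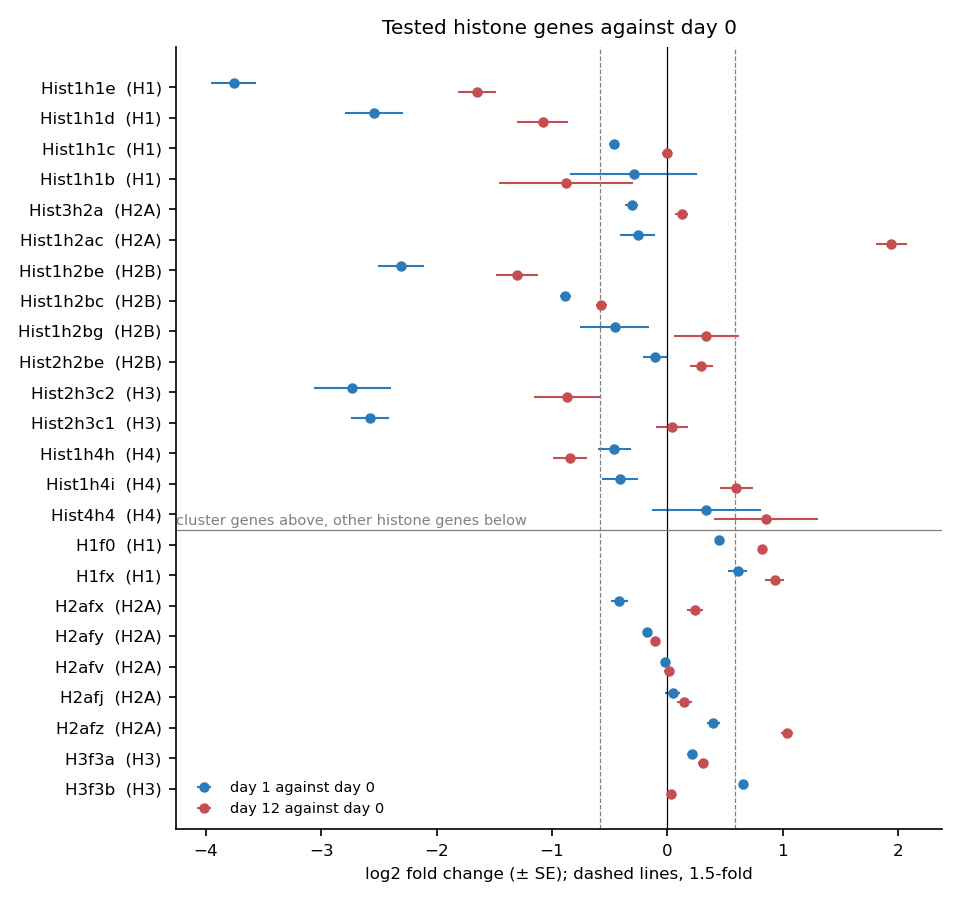
Log2 fold change against day 0 (x axis, ± SE) of the 24 tested histone genes at day 1 (blue) and day 12 (red), by histone type; dashed lines mark a 1.5-fold change. Hist1h1e has the lowest value at day 1 (-3.76), 4 other cluster genes lie between -2.31 and -2.73, and Hist1h2ac (1.94) has the highest value at day 12.

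Of the linker histone genes of the clusters, Hist1h1e and Hist1h1d fell and Hist1h1c was not called. Hist1h1e (chr13:23620629-23622558, minus strand), which encodes a somatic H1, measured 4.32, 4.55, 4.14, 4.80 and 4.58 CPM in the day 0 libraries. It measured 0.410, 0.125, 0.413, 0.167 and 0.470 CPM at day 1, where every library was below every day 0 library. At day 12 it was at 1.21, 1.69, 1.42, 1.27 and 1.54 CPM, between both other groups and without overlap with either. Hist1h1e fell 13.5-fold at day 1 (log2 fold change -3.76, SE 0.20, adjusted p = 2.06e-14) and was 3.14-fold lower at day 12 (-1.65, SE 0.16, adjusted p = 1.55e-09). These values rest on 420 to 544 counts per library at day 0 and 9 to 48 at day 1. In the annotation 25.7% of its exon bases also belong to Gm11398 or Hist1h2be on the same strand, whereas its RefSeq span of 782 bases does not overlap that of Hist1h2be.

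Hist1h1d (chr13:23553262-23560686, plus strand), another somatic H1, had 1.63, 1.64, 1.73, 1.501 and 2.33 CPM at day 0. Its day 1 libraries measured 0.333, 0.167, 0.261, 0.195 and 0.509 CPM, and those of day 12 measured 1.01, 1.10, 0.692, 0.527 and 0.817 CPM. The 3 groups did not overlap, with day 12 again in the middle. Hist1h1d fell 5.82-fold at day 1 (log2 fold change -2.54, SE 0.25, adjusted p = 2.42e-09) and was 2.11-fold lower at day 12 (-1.08, SE 0.22, adjusted p = 1.12e-04). Hist1h1c (chr13:23738808-23740367), the cluster H1 gene with the highest level, measured 100 CPM per kb of transcript at day 0, compared with 2.32 for Hist1h1e. Values per kb depend on the gene model. These rest on GENCODE lengths of 1560 and 1930 bases and would be higher with the RefSeq lengths of 725 and 782. Hist1h1d, with 7425 bases in GENCODE and 776 in RefSeq, is not compared per kb. The group means of Hist1h1c were 156 ± 6.29, 114 ± 5.38 and 156 ± 12.8 CPM at days 0, 1 and 12. The day 1 libraries lay below all others, but the difference (log2 fold change -0.46, SE 0.04, adjusted p = 2.05e-09) stayed under the 1.5-fold limit, and at day 12 the difference from day 0 was -0.004 (SE 0.04, adjusted p = 0.945). Hist1h1b was near the filter, at 0.120 ± 0.0798, 0.101 ± 0.0811 and 0.0646 ± 0.0342 CPM, and was not called.

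Upstream sequence is shown for these 3 H1 genes because they share a type and include genes that were and were not called. The 120 bases before the RefSeq start (GRCm38.p6) are printed 5′ to 3′ on the gene's strand, with 3 motifs in capitals. These are CCAAT, the letters of a box known from many histone promoters. The second, TATAAA, is the classical core promoter element. The third is known as the H1 box and reads AAACACA. Each was searched on both strands.
Hist1h1e, chr13:23622559-23622678, minus strand: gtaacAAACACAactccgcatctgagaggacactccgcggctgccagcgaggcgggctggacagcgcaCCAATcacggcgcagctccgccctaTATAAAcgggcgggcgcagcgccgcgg
Hist1h1d, chr13:23554912-23555031, plus strand: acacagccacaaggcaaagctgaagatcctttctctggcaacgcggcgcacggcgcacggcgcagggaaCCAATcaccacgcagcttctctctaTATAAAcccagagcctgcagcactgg
Hist1h1c, chr13:23738687-23738806, plus strand: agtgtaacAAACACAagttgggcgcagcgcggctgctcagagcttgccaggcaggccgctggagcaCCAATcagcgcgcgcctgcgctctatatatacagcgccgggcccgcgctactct
All 3 hold CCAAT, Hist1h1e and Hist1h1d also hold TATAAA, and Hist1h1e and Hist1h1c hold the H1 box letters in the stretch printed. In the longer window used next, Hist1h1d holds the H1 box letters too, and Hist1h1a is the cluster H1 gene without them. Over windows of 250 bases before to 50 after the start, CCAAT was found for 41 of 49 cluster genes with an entry and for 37.9% of all 27025 promoters. TATAAA was found for 28 of 49 against 14.2%. AAACACA was found for 7 of 49 against 7.14%, with 5 of the 6 cluster H1 genes among these. Of the 8 genes outside the clusters with an entry, 5 held CCAAT, 1 TATAAA and 1 AAACACA. These are matches of letters in a window, and binding was not measured.

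Both tested H3 genes of the clusters, which encode replication-type H3, fell at day 1. Hist2h3c1 (chr3:96246685-96248509) measured 4.46, 4.97, 4.37, 5.66 and 5.27 CPM at day 0. It measured 0.346, 0.930, 1.16, 0.656 and 0.970 CPM at day 1, below all libraries of the other groups. At day 12 it overlapped the day 0 values, at 5.26, 5.68, 4.75, 4.76 and 4.92 CPM. The fall at day 1 was 5.97-fold (log2 fold change -2.58, SE 0.17, adjusted p = 1.14e-12), and day 12 differed from day 0 by 0.04 (SE 0.14, adjusted p = 0.802). The annotation places all of its exon bases inside Gm20634 on the same strand, and 34.7% of its 50-base stretches also occur in other genes, Hist2h3c2 among them.

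Hist2h3c2 (chr3:96238108-96239127, minus strand) had 0.904, 0.818, 0.915, 0.864 and 0.731 CPM at day 0. It had 0.0384, 0.0833, 0.207, 0.0558 and 0.215 CPM at day 1 and 0.531, 0.530, 0.376, 0.257 and 0.600 CPM at day 12, and the 3 groups did not overlap. It fell 6.64-fold at day 1 (log2 fold change -2.73, SE 0.33, adjusted p = 1.01e-07), on 3 to 22 counts per library, and was 1.83-fold lower at day 12 (-0.87, SE 0.28, adjusted p = 7.86e-03). Of its 50-base stretches 63.5% occur in other genes, so its values and those of Hist2h3c1 may share reads and are uncertain as single genes. Summed over all 12 H3 genes of the clusters, levels of 6.09 ± 0.516, 1.05 ± 0.431 and 5.82 ± 0.524 CPM were measured at days 0, 1 and 12.

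**Figure D3:**
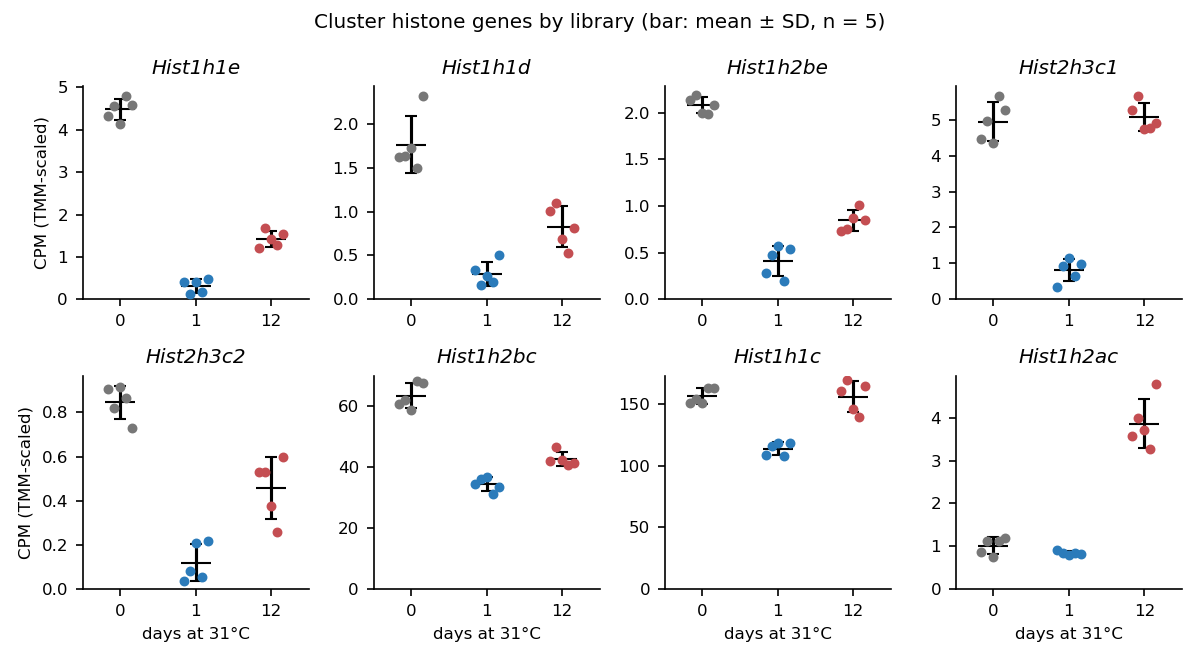
TMM-scaled CPM (y axis, from 0, its own scale in each panel) of 8 cluster histone genes by days at 31°C (x axis); points are libraries and bars show mean ± SD, n = 5. Hist1h1e, Hist1h1d, Hist1h2be and Hist2h3c2 are lowest at day 1 and in the middle at day 12, Hist2h3c1 and Hist1h1c at day 12 overlap the day 0 values, and Hist1h2ac is highest at day 12.

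Among H2B genes, Hist1h2be (chr13:23583670-23621124, minus strand) measured 2.13, 2.19, 2.00, 1.99 and 2.08 CPM at day 0. Its day 1 libraries were at 0.282, 0.472, 0.565, 0.195 and 0.539 CPM and its day 12 libraries at 0.731, 0.757, 0.874, 1.01 and 0.848 CPM, with no overlap between groups. Hist1h2be fell 4.95-fold at day 1 (log2 fold change -2.31, SE 0.20, adjusted p = 2.42e-10) and was 2.47-fold lower at day 12 (-1.30, SE 0.18, adjusted p = 6.97e-07). It shares 11.2% of its exon bases on the same strand with Hist1h1e and Gm11398. Hist1h2bc (chr13:23684199-23692908) is the H2B gene with the highest level per kb, at 54.8 CPM per kb at day 0, and its annotated transcript lacks the stem-loop. Its group means were 63.4 ± 4.14, 34.3 ± 2.23 and 42.6 ± 2.29 CPM, and it fell 1.84-fold at day 1 (log2 fold change -0.88, SE 0.05, adjusted p = 3.93e-14). At day 12 Hist1h2bc was 1.49-fold below day 0 (-0.57, SE 0.05, adjusted p = 6.90e-11), just short of the limit. It passed the limit, at -0.59, when day 0 replicate 1 was left out, and at -0.60 when either replicate 3 of day 0 or replicate 2 of day 12 was. Other H2B genes were not called against day 0: Hist1h2bg, of which 49.7% of 50-base stretches occur in other genes, had 0.369 ± 0.132, 0.270 ± 0.0852 and 0.465 ± 0.0695 CPM, and Hist2h2be had 2.998 ± 0.174, 2.79 ± 0.389 and 3.69 ± 0.371 CPM.

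Hist1h2ac, an H2A gene (chr13:23681467-23683948, minus strand), showed a different order of groups. It measured 0.857, 1.13, 0.747, 1.11 and 1.20 CPM at day 0 and 0.909, 0.847, 0.794, 0.851 and 0.813 CPM at day 1, which overlapped. At day 12 it measured 3.58, 3.99, 3.70, 3.26 and 4.78 CPM, above every other library. The rise at day 12 was 3.85-fold (log2 fold change 1.94, SE 0.14, adjusted p = 3.97e-12), whereas day 1 differed from day 0 by -0.25 (SE 0.15, adjusted p = 0.138). Hist3h2a, the other tested H2A gene of the clusters, had 15.1 ± 1.35, 12.1 ± 0.827 and 16.4 ± 0.640 CPM and was not called. In the annotation 33.0% of the exon bases of Hist3h2a also lie in Trim17 or Gm44313 on the same strand.

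H4 genes were low. Hist1h4h (chr13:23531050-23531519) had 2.48 ± 0.319, 1.80 ± 0.249 and 1.37 ± 0.298 CPM and was lower at day 12 (log2 fold change -0.84, SE 0.15, adjusted p = 1.42e-05). Hist1h4i (chr13:22040636-22041362, minus strand) had 1.41 ± 0.244, 1.06 ± 0.114 and 2.13 ± 0.358 CPM and was 1.52-fold higher at day 12 (0.60, SE 0.14, adjusted p = 6.20e-04). That call for Hist1h4i was lost at the fold limit, with values from 0.53 to 0.57, without any 1 of day 0 replicates 2 and 3 and day 12 replicates 1, 2 and 5. Both share sequence with other H4 genes, in 45.8% of 50-base stretches for Hist1h4h and 28.9% for Hist1h4i. Hist4h4 had 0.140 ± 0.0959, 0.177 ± 0.114 and 0.250 ± 0.0807 CPM and was not called, although without day 0 replicate 2 its day 12 value became 1.26 with an adjusted p of 0.0204.

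Genes under the filter were read only as sums and counts. The 40 untested cluster genes summed to 1.22 ± 0.192, 0.580 ± 0.109 and 1.16 ± 0.218 CPM at days 0, 1 and 12. Their day 1 libraries, at 0.417 to 0.695 CPM, lay below the lowest day 0 library at 0.937 CPM. Hist2h4, the one with the most counts, had 25, 2, 29, 30 and 24 counts at day 0 and 2, 2, 1, 0 and 2 at day 1. Replicate 2 of day 0 was thus as low as the day 1 libraries. With no filter on low counts 7 more cluster genes passed as lower at day 1 (Hist1h1a, Hist1h2bb, Hist1h3d, Hist1h3f, Hist1h4k, Hist1h4m and Hist2h4), with at most 9 counts in any day 1 library.

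Of the genes outside the clusters, H1f0 and H1fx, which encode replacement linker histones, were higher at 31°C. H1f0 (chr15:79028450-79030504), known for accumulating in differentiated cells, measured 130, 127, 132, 131 and 127 CPM at day 0. It measured 178, 180, 172, 174 and 181 CPM at day 1 and 229, 225, 226, 232 and 234 CPM at day 12, so that the groups were separate and in order of time. H1f0 rose 1.77-fold at day 12 (log2 fold change 0.82, SE 0.02, adjusted p = 2.55e-19), and its day 1 value of 0.45 (SE 0.02, adjusted p = 4.94e-14) was under the fold limit. H1fx (chr6:87980421-87981637, minus strand) had 3.11, 2.93, 3.47, 3.55 and 2.77 CPM at day 0, 5.01, 5.14, 4.74, 4.78 and 4.55 CPM at day 1 and 5.69, 6.33, 5.96, 6.50 and 5.75 CPM at day 12. It rose 1.53-fold at day 1 (0.61, SE 0.08, adjusted p = 3.02e-07) and 1.91-fold at day 12 (0.93, SE 0.08, adjusted p = 1.38e-10), and without day 0 replicate 5 the day 1 value was 0.57, under the limit. Of the exon bases of H1fx 17.5% lie opposite another gene, and the strand setting of the counting is not given. Shares were taken over the counts (scaled) of the H1 genes found by the rule. H1f0 took 43.8% ± 1.17 of these at day 0, 59.7% ± 1.13 at day 1 and 58.3% ± 2.05 at day 12.

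Of the H2A variants, H2afz was called against day 0. H2afz (chr3:137864487-137866922), one of the pair of genes for H2A.Z, a variant found at promoters, measured 41.1, 39.8, 37.8, 39.2 and 41.3 CPM at day 0. It measured 47.5, 57.3, 56.0, 45.3 and 56.8 CPM at day 1 and 82.9, 78.3, 80.8, 78.3 and 88.8 CPM at day 12, with no overlap. H2afz rose 2.05-fold at day 12 (log2 fold change 1.04, SE 0.05, adjusted p = 1.08e-14), and its day 1 value was 0.40 (SE 0.05, adjusted p = 4.77e-07), under the limit. Other genes, including Gm8203, Gm26623 and Gm13007, hold 35.4% of its 50-base stretches. H2afv, the other H2A.Z gene, had 32.9, 33.5, 33.1, 32.3 and 34.3 CPM at day 0, 35.7, 34.0, 30.9, 31.2 and 32.5 CPM at day 1 and 36.3, 31.9, 32.0, 33.0 and 34.3 CPM at day 12. Its groups overlapped throughout, with differences from day 0 of -0.02 (SE 0.04, adjusted p = 0.750) and 0.01 (SE 0.04, adjusted p = 0.759), whose signs turned under other settings.

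H2afx (chr9:44334694-44336077), whose product is phosphorylated at DNA breaks, measured 9.24, 10.3, 11.1, 11.5 and 9.81 CPM at day 0. It measured 8.96, 7.75, 7.63, 6.86 and 7.71 CPM at day 1 and 11.2, 14.04, 11.9, 12.3 and 12.0 CPM at day 12. Day 1 lay below both other groups without overlap, as for 8 of the 15 tested cluster genes, but neither its difference from day 0 (log2 fold change -0.42, SE 0.07, adjusted p = 2.05e-05) nor that of day 12 (0.24, SE 0.07, adjusted p = 3.89e-03) reached 1.5-fold. How many of all genes share this order was not counted. Of all genes tested, 57.4% did not overlap between days 0 and 1, and 52.5% between days 1 and 12. H2afx has 10.2% of its exon bases opposite Gm44335. H2afy, which encodes macroH2A, had 58.3, 57.6, 57.8, 62.2 and 61.6 CPM at day 0, 51.4, 54.2, 53.0, 51.7 and 52.6 CPM at day 1 and 55.1, 54.9, 55.6, 55.9 and 54.7 CPM at day 12. Its differences were -0.18 (SE 0.03, adjusted p = 7.36e-06) and -0.11 (SE 0.03, adjusted p = 1.92e-03), and the sign of the latter turned with scaling by total counts. H2afj had 37.3, 42.6, 42.5, 46.5 and 48.5 CPM at day 0, 47.9, 45.6, 38.9, 47.1 and 45.3 CPM at day 1 and 43.1, 44.5, 48.9, 50.9 and 53.6 CPM at day 12. Its groups overlapped, with log2 differences of 0.05 (SE 0.07, adjusted p = 0.518) and 0.15 (SE 0.07, adjusted p = 0.0423). The share of H2afz was taken over the H2A genes found by the rule, without H2afy2, the second macroH2A gene. This share was 19.7% ± 0.955 at day 0, 25.8% ± 2.28 at day 1 and 32.5% ± 0.884 at day 12.

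H3f3a and H3f3b encode the same replacement H3 protein from separate genes, and of the pair H3f3b alone was called. H3f3b (chr11:116021912-116027962, minus strand) measured 511, 524, 495, 541 and 521 CPM at day 0. It measured 795, 818, 844, 783 and 844 CPM at day 1, above all other libraries, and 528, 519, 544, 533 and 536 CPM at day 12, overlapping the day 0 values. It rose 1.57-fold at day 1 (log2 fold change 0.66, SE 0.03, adjusted p = 5.96e-16), and day 12 differed from day 0 by 0.04 (SE 0.03, adjusted p = 0.245). H3f3a (chr1:180800832-180813943, minus strand) had 162, 163, 152, 192 and 172 CPM at day 0, 196, 196, 199, 183 and 199 CPM at day 1 and 203, 211, 209, 212 and 208 CPM at day 12. Its differences of 0.21 (SE 0.04, adjusted p = 8.98e-05) and 0.31 (SE 0.04, adjusted p = 3.43e-07) were under the limit, and 22.8% of its exon bases lie opposite other genes. Counts (scaled) were summed over the H3 genes found by the rule, without the centromeric H3 gene Cenpa. H3f3a and H3f3b gave 99.1% ± 0.0405 of this sum at day 0, 99.9% ± 0.0396 at day 1 and 99.2% ± 0.0797 at day 12.

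**Figure D4:**
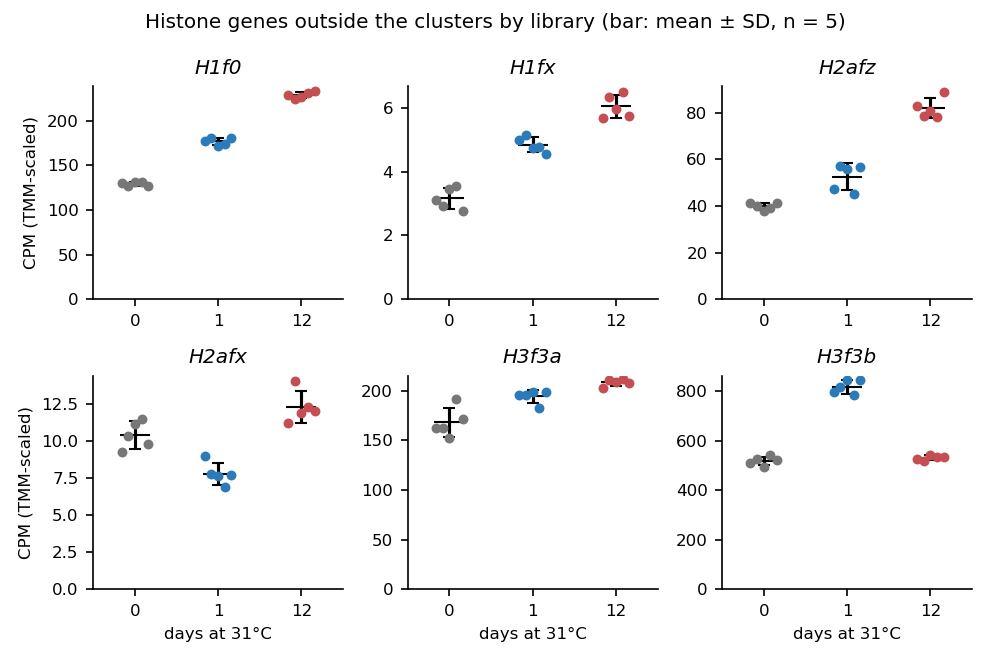
TMM-scaled CPM (y axis, from 0, its own scale in each panel) of 6 histone genes outside the clusters by days at 31°C (x axis); points are libraries and bars show mean ± SD, n = 5. H1f0, H1fx and H2afz are separate in order of time, H3f3b is highest at day 1 and H2afx is lowest at day 1.

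Day 12 was also compared with day 1 directly. Higher at day 12 were 10 of the 24 histone genes, beside 10.6% of all genes tested: Hist1h1d, Hist1h1e, Hist1h2ac, Hist1h2be, Hist1h2bg, Hist1h4i, Hist2h3c1, Hist2h3c2, H2afx and H2afz. H3f3b was the single lower one, beside 8.53% of all genes. The median log2 fold change was 0.79 over the cluster genes, 0.10 over the others and 0.01 over all genes. Hist2h3c1 differed most, at 6.14-fold (log2 fold change 2.62, SE 0.17, adjusted p = 1.17e-12), followed by Hist1h2ac at 4.59-fold (2.199, SE 0.14, adjusted p = 1.58e-12) and Hist1h1e at 4.32-fold (2.11, SE 0.21, adjusted p = 3.69e-09). H2afx was 1.58-fold higher (0.66, SE 0.07, adjusted p = 2.70e-08) and H2afz 1.56-fold higher (0.64, SE 0.05, adjusted p = 1.90e-10), while H3f3b was at -0.62 (SE 0.03, adjusted p = 1.96e-15). The H2afz call was lost in the larger series of library numbers (0.58), and the H3f3b call with scaling by total counts (-0.45). The call for Hist1h2bg (adjusted p = 0.0206) was lost when either replicate 4 or 5 of day 1 was left out (adjusted p = 0.0506 and 0.0597), when replicate 2 of day 12 was (adjusted p = 0.0523), and in the larger series of library numbers (0.58, adjusted p = 0.178).

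In sums, the cluster genes had 259 ± 10.9, 170 ± 8.37 and 237 ± 16.6 CPM at days 0, 1 and 12. Hist1h1c and Hist1h2bc made up 84.9% ± 0.581, 87.2% ± 0.421 and 83.9% ± 0.291 of these sums. Without that pair the sums were 38.9 ± 1.15, 21.7 ± 1.504 and 38.0 ± 2.36 CPM, so that the low level at day 1 did not rest on it. The 9 genes outside the clusters summed to 1006 ± 35.7, 1384 ± 38.3 and 1207 ± 17.1 CPM, with H3f3b the largest part.

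Genes of histone mRNA processing, of histone deposition and of S phase were read beside these sums. Against day 0, 7.71% of all genes tested rose and 13.4% fell at day 1, and 13% rose and 16.2% fell at day 12. Of 17 genes for processing histone mRNA 16 were not called at either time against day 0. Slbp, which encodes the protein that binds the stem-loop shown above, had 18.6 ± 0.402, 18.6 ± 1.26 and 19.8 ± 0.801 CPM, with differences of 0.00 (SE 0.04, adjusted p = 0.993) and 0.09 (SE 0.04, adjusted p = 0.0672). Ncbp2, a subunit of the cap-binding complex that was singled out after its values were seen, was the exception, at 45.2 ± 1.81, 20.4 ± 0.545 and 29.9 ± 0.563 CPM, and fell at both times. Of 22 tested chaperone and deposition genes 6 rose at day 1 and 5 at day 12 (Chaf1a, Chaf1b, Asf1b, Nasp and Hira), and the median log2 fold change was 0.14 and 0.23. Chaf1b, a subunit of the assembly factor CAF-1, had 2.15 ± 0.240, 4.26 ± 0.477 and 7.54 ± 0.446 CPM. Asf1b, a chaperone for H3 and H4, had 1.23 ± 0.320, 2.71 ± 0.414 and 7.05 ± 0.347 CPM, and both rose at both times. Ubn2, a subunit of the HIRA complex also named after its values were seen, was the only one of this list to fall, at day 1 (36.3 ± 1.87 to 23.1 ± 3.56 CPM).

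Of 30 S phase genes 3 rose at day 1 (Gins2, Fen1 and Rfc4) and 4 fell, among them Cdc6, Pola1 and E2f1. At day 12, 19 rose and 1 (E2f1) fell. The median log2 fold change of the 30 was 0.17 at day 1 and 0.74 at day 12. Pcna, the sliding clamp of DNA polymerase, had 43.4 ± 1.92, 53.3 ± 1.28 and 53.0 ± 2.06 CPM, and Mcm2, of the replicative helicase, had 11.7 ± 0.716, 10.8 ± 0.653 and 17.4 ± 1.21 CPM, neither past the fold limit. Relative to the day 0 mean, the summed S phase genes stood at 1.08 ± 0.0128 at day 1 and 1.54 ± 0.0420 at day 12, and the cluster histone genes at 0.657 ± 0.0323 and 0.915 ± 0.0643. Of the histone genes outside the rule, Cenpa, the centromeric H3, rose at both times (3.40 ± 0.273, 5.68 ± 0.886 and 9.95 ± 0.863 CPM), and H2afy2, the second macroH2A gene, rose at day 12 (17.3 ± 1.05, 17.3 ± 0.686 and 29.5 ± 0.882 CPM).

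**Figure D5:**
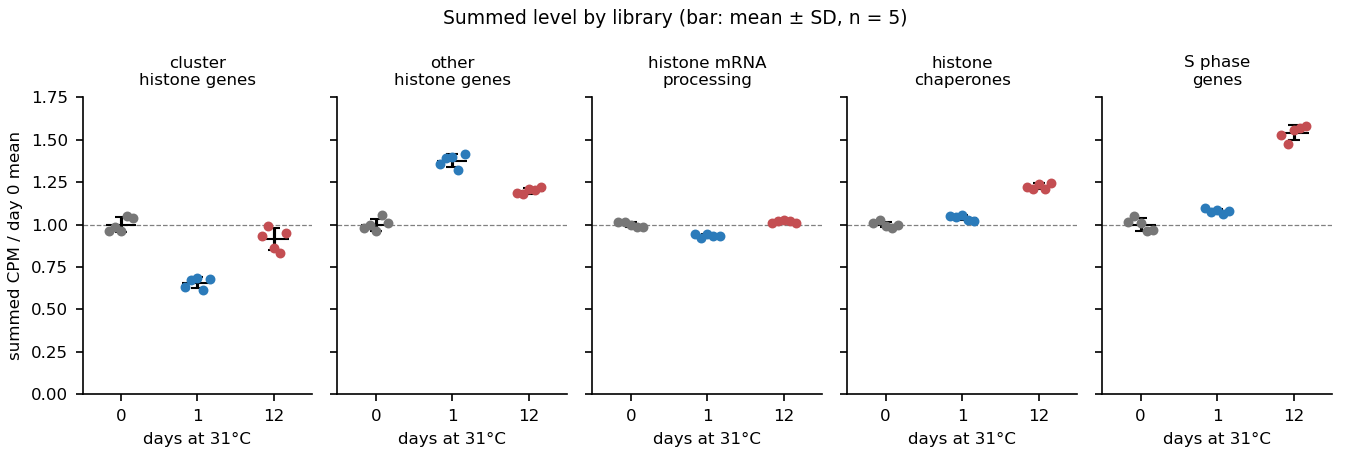
Summed CPM of each gene list divided by its day 0 mean (y axis, from 0) by days at 31°C (x axis); points are libraries and bars show mean ± SD, n = 5. Cluster histone genes are lowest at day 1 (0.657), when other histone genes are highest (1.38), and S phase genes are highest at day 12 (1.54).

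Markers of cell types and of RNA selection were read in the same libraries. Adipocyte markers were abundant in all groups, with Fabp4 at 828, 1399 and 1617 CPM and Plin1 at 200, 283 and 235 CPM at days 0, 1 and 12. Of 8 such markers, Fabp4 rose and Cidec and Lep fell at both times, while Adipoq and Pparg fell at day 12. All 6 markers of proliferating cells rose at day 12 and 2 (Ccnb1 and Birc5) at day 1 (their summed level lay in the ranges 50.3 to 61.8, 60.5 to 71.3 and 156 to 188 CPM at the 3 times), and the part of proliferating cells in the histone results was not tested. Other cell type markers moved too, at low levels, and their part was not tested either. Macrophage markers summed to 6.63 to 9.05, 9.82 to 12.96 and 5.06 to 5.99 CPM at the 3 times, almost all of it Cd68. Csf1r rose at both times (0.199, 0.841 and 0.562 CPM), and Ptprc was under 0.03 CPM in each group's mean. Endothelial markers summed to at most 0.694 CPM at days 0 and 1 and 0.858 to 1.37 CPM at day 12, when both tested ones (Pecam1 and Kdr) rose, with Cdh5 near 0. Mesothelial markers summed to 1.79 to 2.25 CPM at days 0 and 1 and 23.4 to 38.3 at day 12, the rise being Msln (0.628, 0.870 and 29.3 CPM) while Wt1 and Upk3b stayed at or near 0 and Krt19 fell at day 1 (1.02 to 0.636 CPM). Epithelial markers summed to 8.04 to 9.54, 11.2 to 13.7 and 4.54 to 6.53 CPM, nearly all Krt8, with Epcam near 0. Stromal progenitor markers summed to 1149 to 1229, 1210 to 1277 and 964 to 995 CPM, and Dpp4 and Pi16 were near 0. Of the 3 tested, Ly6a alone was called, as lower at day 12 (591, 534 and 221 CPM). The median log2 fold change of these 3 against day 0 was 0.23 at day 1 and -0.09 at day 12. Small noncoding RNAs that carry no poly(A) tail were close to absent, with 13 of 89 tested and summed levels of 4.04 to 5.32, 4.59 to 6.30 and 4.94 to 7.36 CPM at the 3 times. Rmrp, one of them, had 0.627 ± 0.136, 0.756 ± 0.304 and 0.774 ± 0.301 CPM and was not called. Snora64 and Snord16a rose at day 1, and Snora28, Snora81, Snord16a, Snord22 and Snord96a at day 12. The low level of these RNAs does not show which RNA selection was used, because short RNAs may also be lost by size in library preparation. A change in the share of histone mRNA with a poly(A) tail and a change in its amount cannot be told apart in these counts.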

How the data were processed

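RNA sequencing of 15 libraries, 5 each at days 0, 1 and 12, was analysed from the deposited raw counts per gene. The authors aligned reads to mm10 with TopHat2 2.0.13 and Bowtie2 2.2.1, per the labels, and counted them with HTSeq; the annotation, strand setting, read length and treatment of reads with several matches are not given in the sources used here. The deposited regularized log values and DESeq2 tables, which hold fold changes and p-values, were not used.

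Groups came from the labels. Genes were filtered with filterByExpr of edgeR 4.0.16 (R 4.3.3) at a minimum count of 10, scaled by TMM and tested with the quasi-likelihood test, all 15 libraries in one fit without covariates and with the Benjamini-Hochberg adjustment over all 14293 genes. SE is the size of the log2 fold change over the square root of F. A count of 0 allows up to 3 counts, 0.0238 to 0.0428 CPM by library, for counting error only. The biological coefficient of variation was 5.25%.

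Given in full were the 9 genes outside the clusters and, against day 0 at each time, the 4 called histone genes that rose most and the 4 that fell most, provided that 1 group mean reached 0.5 CPM; other members are given by group means. From the other lists, up to 4 genes with the highest level or a central role were named. The values of 1 S phase gene are not reported here. Members and lists were chosen with earlier results of these data known. Transcripts were read from GENCODE M21 and promoters from RefSeq (GRCm38.p6; 57 of 64 genes matched), and all 64 symbols were found in GENCODE. Alternatives were DESeq2 1.42.0, other scalings and filters, no fold limit, a replicate block, the series of library numbers, fits of 2 groups and leaving out each library.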

Additional observations from a re-analysis of the deposited data

Results flagged for a closer look

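For each of 15 histone genes given in full, the highest or lowest library of each group was compared with the rest of its group, 45 groups in all, and 3 had a library far from the others by Dixon's criterion for 5 samples (0.71). Chance gives about 1 in 20 groups. H2afj measured 38.9 CPM in day 1 replicate 3, with the other day 1 libraries at 45.3 to 47.9 CPM. H3f3a measured 183.3 CPM in day 1 replicate 4, with the others at 195.7 to 199.4 CPM. Hist1h1d measured 2.325 CPM in day 0 replicate 5, with the others at 1.501 to 1.731 CPM, and every day 0 library lay above every library at 31°C.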

How the results depend on the processing

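Counts of called histone genes moved mainly with the filter and the fold limit. Lower at day 1 were 6 genes, against 13 with the DESeq2 Wald test or no filter on low counts, 12 with no fold limit and 1 where a mean of 10 CPM was required. Higher at day 1 were 2, against 5 with no fold limit, 1 at a mean of 10 CPM, and 1 to 2 on leaving out 1 library (1 without day 0 replicate 5, which loses H1fx). Lower at day 12 were 5, against 8 with DESeq2 or no filter and 1 at a mean of 10 CPM, which was none of the 5 but Hist1h2bc; higher were 5, against 10 with no filter or no fold limit and 2 at a mean of 10 CPM. For day 12 against day 1, 10 were higher, against 18 with no fold limit and 2 at a mean of 10 CPM, and 1 was lower, against 0 with total counts (H3f3b at -0.45) and 2 with no fold limit. The replicate numbers did not pair the libraries (same-number correlations from -0.0255 to 0.0436), although for 10 of 15 the closest library of another group had the same number; the replicate block gave 2, 6, 5, 5, 10 and 1 calls, as without it. Signs turned only for differences that were not called: H2afv (day 1: 0.00497 with total counts, 0.0255 in the larger series of library numbers and -0.0467 to 0.00919 leaving out 1 library; day 12: -0.00492 at a mean of 10 CPM and -0.0152 to 0.0325 leaving out 1 library; day 12 against day 1: -0.00681 in the larger series and -0.000347 to 0.0618), H2afy at day 12 (0.0861 with total counts), H2afj at day 1 (-0.00324 to 0.0995) and Hist2h3c1 at day 12 (-0.00225 to 0.0920), and for Hist1h1b, Hist1h1c and Hist4h4. In the larger series of 11 libraries the calls of H2afz (0.58, under the fold limit) and Hist1h2bg for day 12 against day 1 were lost, which left 8. Why these values moved was not tested, beyond the genes a filter adds or removes. Low counts limit what can be said of the 40 untested cluster genes, and a fall of a gene under about 1 CPM rests on few counts.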
